A study of Homo sapiens with 24 samples.

Results

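Private genes are described here, that is, genes whose RNA set a single clonal cell line apart from all the other lines in RNA sequencing of H1299 cells. They were chosen by their mean read level, in reads scaled to a common library total (CPM, the count divided by the library total, times 1000000), over the 4 libraries of each of 6 groups. A gene was selected as higher where one clone had a mean of 1 CPM or more and at least 4 times the mean of every other group. It was selected as lower where one clone was at or under 0.25 times the mean of every other group and all of those had 1 CPM or more. Of 60563 named genes, 18 passed, 9 of them higher and 9 lower in their clone.

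H1299 is an established human non-small cell lung cancer line that lacks p53. The clones carried a plasmid for an isoform of p53 that starts at an internal start codon, and overexpressed it stably. The isoform was Δ133p53α in 3 clones (Δ133p53α1, Δ133p53α2 and Δ133p53α8) and Δ133p53β, which has a different C-terminal end, in 2 clones (Δ133p53β5 and Δ133p53β10). The control was H1299 carrying the vector alone, labelled NULL. Each group is 1 line, and no source says that its 4 libraries came from separate cultures, so spread and p-values refer to these libraries. In a single clone, an effect of the isoform and a difference between clones cannot be told apart.

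Clonal lines are grown from single cells, so each carries on whatever expression state, mutations and chromosome changes that cell had. Cancer lines such as H1299 are heterogeneous in all of these. Genes in a private state can be protein-coding genes, noncoding RNAs, or pseudogenes, which are inactive copies of genes that often keep nearly the same sequence as the parent gene. Where a copy is nearly identical to its parent, short reads may be assigned to either.

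Between 21531599 and 25381731 reads were counted per library. KRT8, KRT18 and VIM, carcinoma and mesenchymal markers, had group means of at least 617 CPM, whereas EPCAM and KRT19 stayed at or under 0.114 CPM. PTPRC, CD3E and HBB, markers of blood cells, were at 0 in all groups. In bulk RNA, fewer cells expressing a gene and less RNA per cell cannot be told apart. The libraries fell into 2 sets, and every group had libraries in both. The deviation of each library from the mean of all libraries was ranked against gene length. Gene length here and in the figures is the merged exon length of a gene, without introns. The rank correlation was positive in 12 libraries (0.26 to 0.392) and negative in the other 12 (-0.363 to -0.14). Of the Δ133p53α1 libraries, only replicate 1 was in the positive set, and the same held for Δ133p53β5 and Δ133p53β10. In the negative set were only replicate 1 of Δ133p53α2, replicate 2 of Δ133p53α8 and replicate 1 of control. The sets were thus not balanced over the groups, which bears on all comparisons of group means. One library stands against its labels: its sample title names Δ133p53β10, which gives that clone 5 libraries and Δ133p53β5 3, whereas its column names Δ133p53β5. It was analysed as replicate 4 of Δ133p53β5. Counted in Δ133p53β10, it left 15 of the 18 genes private. LTF, AMPH and GAGE13 were no longer members, and LINC00664 became one, as lower in Δ133p53α1.

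The private genes were unevenly spread over the clones. Δ133p53α1 had 5 higher and 4 lower, Δ133p53α8 had 2 and 2, Δ133p53β5 had 2 and 1, Δ133p53α2 had 0 and 2, and Δ133p53β10 had none. The nearest genes in Δ133p53β10 were RPL9P7, a ribosomal protein pseudogene at 3.32 times the next group, and PAPPA2 at 3.3 times. On the lower side DUSP23 came nearest, at 2.42-fold. Just inside the limit were LTF (4.09) and EEF1A1P13 (4.63) on the higher side and AMPH (4.01) and GAGE13 (4.17) on the lower side. DTX4 of Δ133p53α1 (3.73), RPL41P2 of Δ133p53α2 (3.45), CTSZ of Δ133p53α1 (3.83) and ALDH1A2 of Δ133p53β5 (3.83) were just outside. These ratios made the selection, so they are given without a test.

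**Figure D1:**
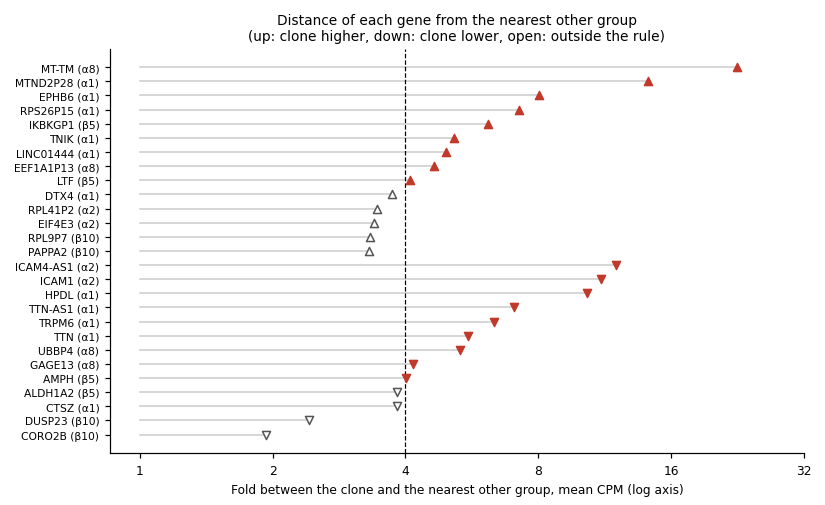
Fold between the mean CPM of the clone and that of the nearest other group (log axis), for the 18 private genes (filled) and the nearest genes outside the rule (open), with the clone in brackets. Triangles point up for genes higher and down for genes lower in the clone, the dashed line is the limit of 4, and the value of HPDL is a lower bound. Among the other genes MT-TM lies farthest out, at 22.6.

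The sequences show why some of these genes need care. MTND2P28, private to Δ133p53α1, is a nuclear copy on chromosome 1 (chr1:629640-630683, GRCh38, plus strand) of the mitochondrial gene MT-ND2, which encodes a subunit of respiratory complex I. Of 1042 positions compared between the RNAs, 17 differed (98.37% identity). The stretch of 100 bases with the most differences holds 5 of them, which stand in capitals below, from chr1:630062-630161 and chrM:4892-4991, 5′ to 3′.
MTND2P28: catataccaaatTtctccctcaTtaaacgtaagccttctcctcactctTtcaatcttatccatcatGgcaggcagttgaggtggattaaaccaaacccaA
MT-ND2: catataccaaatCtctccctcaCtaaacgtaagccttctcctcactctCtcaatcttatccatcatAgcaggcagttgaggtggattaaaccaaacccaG
A read of the usual length from this gene can hold few or none of the bases that tell both copies apart. MT-TM, private to Δ133p53α8, is the mitochondrial tRNA for methionine and lies next to MT-ND2 (chrM:4402-4469, plus strand). It is 68 bases long, shorter than 1 sequencing read, and is printed with the only CAT, the letters of its anticodon, in capitals.
MT-TM: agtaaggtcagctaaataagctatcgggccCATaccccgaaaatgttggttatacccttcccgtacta
The third set is the start of TNIK, private to Δ133p53α1, a kinase of the germinal centre family that acts in Wnt signalling and on the cytoskeleton. The window from 250 bases before to 50 bases after its start (chr3:171460359-171460658, minus strand, RefSeq on GRCh38.p14) also holds the start of an unclassified transcript on the other strand, described below with the neighbouring genes. The letters GGGCGG, a GC box, were searched on both strands and are in capitals.
TNIK promoter: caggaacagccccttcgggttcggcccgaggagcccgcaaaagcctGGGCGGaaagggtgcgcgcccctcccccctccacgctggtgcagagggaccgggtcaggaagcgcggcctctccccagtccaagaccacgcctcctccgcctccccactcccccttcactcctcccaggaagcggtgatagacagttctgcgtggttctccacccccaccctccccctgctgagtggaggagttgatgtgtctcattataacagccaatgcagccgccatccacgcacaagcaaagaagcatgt
Such windows were at hand for 12 of the 18 genes by symbol. GGGCGG was found on either strand in 6 of the 12, beside 45% of all 35116 windows. TATAAA was found in 1 of the 12, that of ICAM1, beside 11.5% of all windows.

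Among the genes higher in Δ133p53α1, TNIK (chr3:171058414-171460408) was counted at 134, 64.5, 51.1 and 34.3 CPM in the 4 Δ133p53α1 libraries, 71.0 ± 43.9 (SD, n = 4). In control it was at 13.1, 10.9, 20.9 and 10.3 CPM, the next highest group, with a mean of 13.8. Every Δ133p53α1 library lay above every other library, since the 20 others ranged from 1.66 to 20.9 CPM. The relation of means was 5.15-fold, and fell below 4-fold without replicate 1. The other Δ133p53α clones had means of 9.29 CPM (Δ133p53α2) and 9.16 CPM (Δ133p53α8), and the Δ133p53β clones 3.57 CPM (Δ133p53β5) and 4.15 CPM (Δ133p53β10). Its relatives MINK1 (39.0 to 63.4 CPM) and MAP4K4 (144 to 216 CPM), kinases of the same family, were not private to any clone.

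EPHB6 (chr7:142855061-142871094), an Eph receptor without kinase activity, was at 1.83, 2.35, 2.58 and 1.32 CPM in Δ133p53α1. Control had 0.158, 0.0455, 0.138 and 0.0459 CPM. The 20 other libraries reached at most 0.503 CPM, so the groups did not overlap. The mean of 2.02 CPM was 8.03 times that of Δ133p53α8, the next group. The other EPHB receptors were not private: EPHB2 ranged from 8.08 to 15.5 CPM and EPHB4 from 54.1 to 93.5 CPM over the groups. Of 31 semaphorin, ephrin and Eph receptor genes at 1 CPM or more in some group, EPHB6 alone was private.

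LINC01444 (ENSG00000264301), a long intergenic noncoding RNA on chromosome 18, was at 1.6, 2.03, 2.86 and 4.17 CPM in Δ133p53α1 and at 0.0913 to 0.788 CPM elsewhere. Its mean of 2.67 CPM was 4.93 times that of control, the next group. The libraries did not overlap, but within each set of libraries the ratio was under 4 (3.5 in the positive and 3.83 in the negative set).

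MTND2P28 was at 25.3, 32.5, 43.1 and 74.5 CPM in Δ133p53α1, with a mean of 43.9 ± 21.7 (SD, n = 4). In the 20 other libraries it was at 0.636 to 4.22 CPM, a gap without overlap. The mean was 14.2 times that of control (3.09 CPM). MT-ND2 itself was at 2292 CPM in Δ133p53α1 and at 1762 to 2304 CPM in the other groups, so the parent did not stand apart. MTND2P28 took 1.38% to 2.38% of the reads of both genes in Δ133p53α1 and 0.0373% to 0.189% elsewhere. None of the 5 other tested copies in the same nuclear stretch of mitochondrial DNA was private or passed the test of Δ133p53α1 against the mean of the other groups (edgeR adjusted p from 0.213 to 0.646). Their log2 fold changes were all positive, at 0.82 for MTND1P23, 0.57 for MTCO1P12, 0.86 for MTCO2P12, 2.15 for MTATP6P1 and 0.58 for MTCO3P12. MTCO2P12 was highest in Δ133p53α1, at 2.48 CPM beside 1.14 to 2.19 CPM. The others were higher in another group, as MTCO1P12 was in control (55.2 CPM beside 27.4 CPM) and MTATP6P1 in Δ133p53β10 (25 CPM beside 11.2 CPM). How reads that map to several places were counted is not stated in the sources used here, so the origin of the MTND2P28 reads is uncertain.

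RPS26P15, a processed pseudogene of the ribosomal protein gene RPS26 (chr1:58056133-58056480), was private through 1 library. Its counts in Δ133p53α1 were 7, 272, 12 and 16, so replicate 2 held 88.6% of them. The other libraries had at most 0.645 CPM, and the remaining Δ133p53α1 libraries 0.32 to 0.726 CPM, which overlap. It shares 345 of 348 bases with RPS26. Without replicate 2 it was not private.

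Taken by library, 4 of the 5 genes higher in Δ133p53α1 had all 4 libraries above the 20 others, which held for 0.117% of the 17990 tested genes. All 4 of the genes lower in Δ133p53α1 had all 4 libraries below the others (0.25% of tested genes). The choice of the genes used the same contrast, so nothing is read from these shares. The same holds for the shares given below for the other clones.

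**Figure D2:**
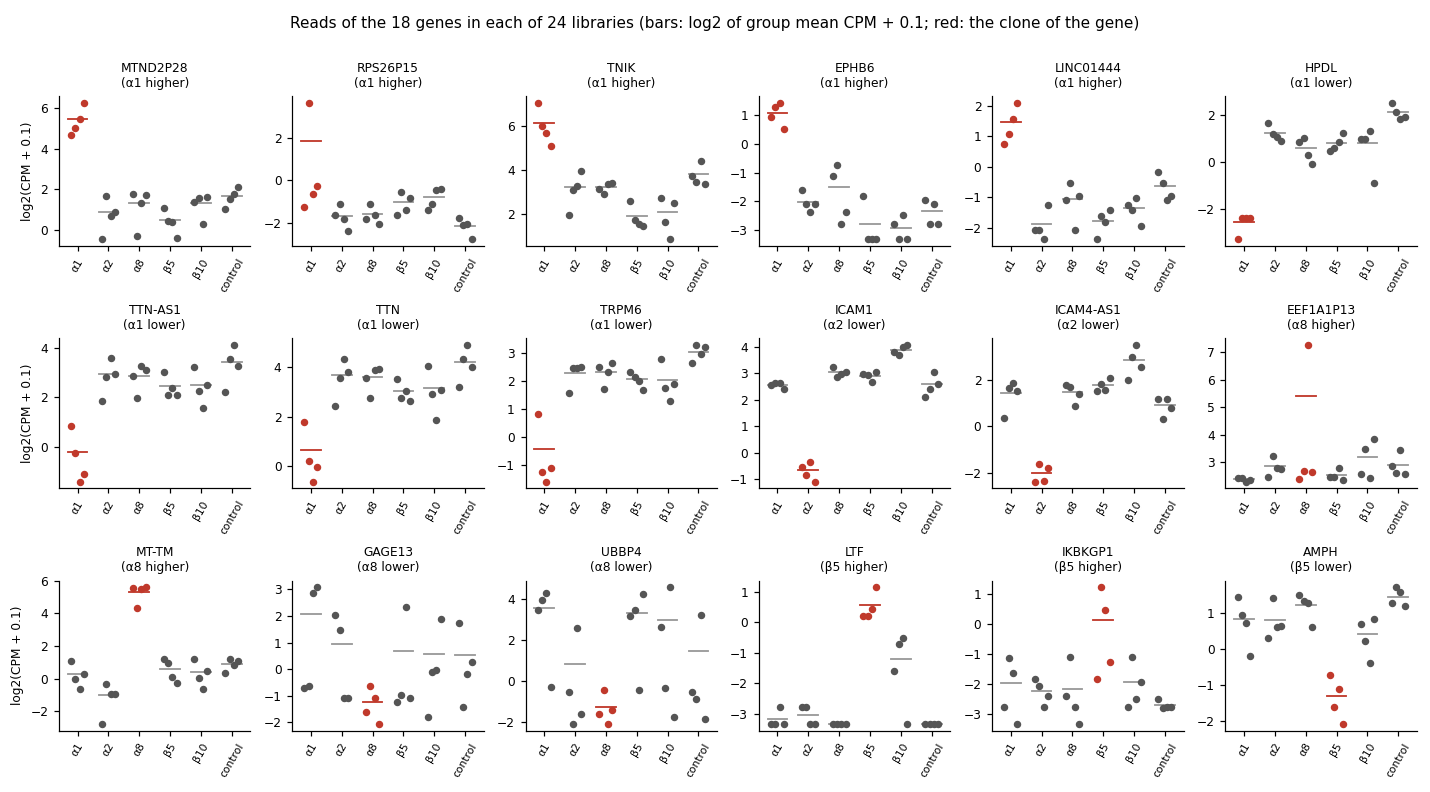
Level of each private gene as log2(CPM + 0.1), 1 point per library and replicates 1 to 4 from left to right, in the 5 clones and in control, with the clone of the gene in red. Of the 18 genes, 13 have red points that do not overlap the other 20, beside 0.0222% to 0.25% of tested genes per clone and direction. The selection used these same values, so nothing is read from that number. RPS26P15 and EEF1A1P13 stand out through 1 library, and GAGE13 and UBBP4 are scattered within most groups.

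The 4 genes lower in Δ133p53α1 were HPDL, TTN, TTN-AS1 and TRPM6. HPDL (chr1:45326895-45328710), a mitochondrial protein related to the tyrosine-degrading enzyme HPD, was nearly silent there. The counts were 0, 2, 2 and 2 reads, whereas control had 144, 95, 77 and 82 reads. The 20 other libraries had at least 11 reads, and the groups did not overlap. The mean of Δ133p53α8, the nearest group, was 1.41 CPM, which is at least 10.3-fold higher than the 3 counts per library that such low numbers allow. This bound covers counting error only. HPD was at 0.329 to 0.568 CPM in all groups and not private.

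TTN (chr2:178525989-178830802) encodes titin, the giant spring protein of the muscle sarcomere. In Δ133p53α1 it was at 3.34, 1.04, 0.544 and 0.862 CPM. In control it was at 9.14, 20.1, 29.6 and 15.8 CPM. The 20 other libraries were at or above 3.56 CPM, so that replicate 1 of Δ133p53α1 came close to them without overlap. The mean of 1.45 CPM was 5.55 times below that of Δ133p53β5 (8.03 CPM).

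TTN-AS1 (chr2:178521183-178779963), a long noncoding RNA on the opposite strand of TTN, was at 1.69, 0.724, 0.272 and 0.363 CPM in Δ133p53α1. Elsewhere it was at 2.89 to 17.3 CPM, and the mean was 7.05 times below that of Δ133p53β5. TTN-AS1 and TTN share 14004 exon bases, which are 54.9% of TTN-AS1 and 11.8% of TTN. The libraries were strand-specific, but whether strand was used in the counting is not stated. Without it the reads of both genes in the shared bases cannot be told apart, and the genes count as uncertain members for the same reason.

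TRPM6 (chr9:74722495-74888094), a magnesium-permeable channel fused to a kinase, was at 1.65, 0.317, 0.227 and 0.363 CPM in Δ133p53α1. Control had 6.26, 9.7, 7.83 and 9.35 CPM. No library of another group was below 2.33 CPM. The mean was 6.35 times below that of Δ133p53β10 (4.05 CPM). Without replicate 1 of Δ133p53α1, the ratio was 13.4 for TRPM6, 11.9 for TTN-AS1 and 9.85 for TTN. The Δ133p53α1 libraries left were then all of the negative set, whereas the other groups kept both sets. Within the negative set alone, the ratios were 9.48, 7.73 and 6.47, in this order. TRPM7, the closest relative of TRPM6, was at 21.1 CPM in Δ133p53α1 and 25.4 to 48.8 CPM elsewhere, and was not private.

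TTN and TRPM6 are long genes, and their level also moved with the set of libraries. TTN ranged from 3.56 to 9.14 CPM in the 9 other libraries of the negative set and from 11.3 to 29.6 CPM in the 11 of the positive set. In both sets Δ133p53α1 lay below the other libraries. The ratio to the next group was 6.47 in the negative and 3.38 in the positive set for TTN, and 9.48 and 3.02 for TRPM6. TNIK was 9.57 times above the next group in the positive and 3.82 times in the negative set. The part of the set in these ratios was not tested.

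**Figure D3:**
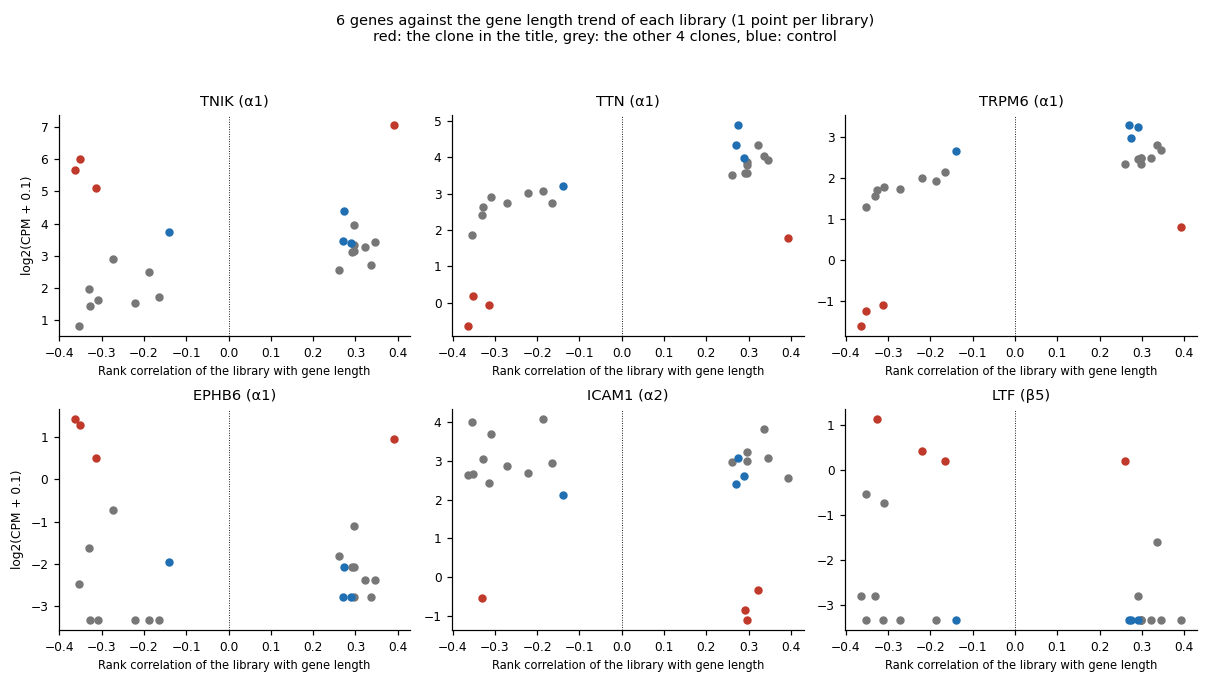
Level of 6 private genes as log2(CPM + 0.1) against the rank correlation of each library with gene length, 1 point per library, with the clone of the gene in red, the other 4 clones in grey and control in blue. The single Δ133p53α1 library on the right has the highest TNIK and the highest TTN and TRPM6 of that clone, and in each set the red points stay apart from the others in all 6 panels.

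The number of genes selected rested on 1 library of Δ133p53α1. Without its replicate 1, the only one in the positive set, 69 genes in place of 4 were lower in Δ133p53α1, and 83 in place of 18 were private in all. Of the 18 genes, 17 were among the 83, TNIK being the exception.

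In Δ133p53α2, both private genes were lower and lie side by side on chromosome 19. ICAM1 (chr19:10271093-10286615), the adhesion molecule that binds integrins of leukocytes, was at 0.591, 0.455, 0.69 and 0.367 CPM there. Control had 4.26, 5.19, 8.24 and 6.01 CPM. Δ133p53β10 was highest with 14.0, 12.8, 15.9 and 16.7 CPM. No other library was below 4.26 CPM, and the mean was 11.1 times below that of Δ133p53α1, the nearest group. The RNA of ICAM1 was thus low in all 4 Δ133p53α2 libraries, whatever their set.

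ICAM4-AS1 (chr19:10285801-10289019), a long noncoding RNA antisense to ICAM4, was at 0.0909, 0.228, 0.0919 and 0.183 CPM in Δ133p53α2 and at 1.14 to 11.3 CPM elsewhere. Its mean was 12 times below that of control (1.78 CPM). It shares 815 exon bases with ICAM1 on the opposite strand, 25.3% of its own and 23.6% of those of ICAM1, so both are uncertain in the same way as TTN and TTN-AS1. All exon bases of ICAM4 lie within ICAM4-AS1, and ICAM4 was at or under 0.0328 CPM in every group. The further family members ICAM3 (9.93 to 16.8 CPM) and ICAM5 (5.84 to 18.1 CPM) were not private to a clone. Both private genes of Δ133p53α2 had all 4 libraries below the 20 others, as did 0.0723% of tested genes.

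In Δ133p53α8, MT-TM was far above the other groups. It was at 46.5, 20.4, 45.0 and 48.4 CPM there, with a mean of 40.1 ± 13.2 (SD, n = 4). Every other library had between 0.0455 and 2.23 CPM, and control, the next group, had a mean of 1.77 CPM, for a ratio of 22.6. Replicate 2, the one Δ133p53α8 library of the negative set, was at 20.4 CPM, still above all others. The genes on either side did not follow. MT-TQ was at 16.9 CPM in Δ133p53α8 and 9.62 to 16.9 CPM elsewhere, and MT-ND2 at 2304 CPM and 1762 to 2292 CPM. Among the other mitochondrial tRNA genes, MT-TP was at 12.8 CPM in Δ133p53α8 and MT-TY at 25.0 CPM, beside 14.6 to 22.9 CPM and 10.4 to 42.8 CPM elsewhere. The libraries were made from poly(A) RNA, which does not capture most mature tRNA, and a read longer than MT-TM also covers bases outside it.

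EEF1A1P13 (chr5:14651941-14653329), a processed pseudogene of the translation elongation factor EEF1A1, was private through replicate 3. The counts in Δ133p53α8 were 113, 138, 3328 and 133. Without replicate 3, Δ133p53α8 was not above the others, and the libraries overlap. Its 1389 bases are identical to EEF1A1 in 1363 positions. EEF1A1 itself was at 8727 to 11416 CPM over the groups. In Δ133p53α8, EEF1A1P13 took up to 1.28% of the reads of both genes, beside 0.0485% to 0.118% in the other groups. Of the 2 higher genes of Δ133p53α8, 1 had all its libraries above the 20 others (0.0667% of tested genes).

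The genes lower in Δ133p53α8 were GAGE13 and UBBP4, and neither had all 4 libraries below the others (0.0222% of tested genes). GAGE13 (chrX:49331582-49338949), a cancer-testis antigen, was at 0.228, 0.548, 0.366 and 0.139 CPM in Δ133p53α8. In Δ133p53α1 it was at 0.503, 0.543, 7.12 and 8.35 CPM. Its values thus varied by an order of magnitude within a clone, and leaving out any of 6 libraries ended its selection. It is 99.46% identical to GAGE12J and 99.28% to GAGE12G. GAGE2A, which has 98.93% identity, was at 50.6 CPM in Δ133p53α8 and 54.0 to 116 CPM elsewhere. Of 19 cancer-testis antigen genes at 1 CPM or more in a group, GAGE13 alone was private.

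UBBP4 (chromosome 17, a symbol shared by 2 entries of the annotation between 22090743 and 22205156) is a pseudogene of the ubiquitin gene UBB. It was at 0.228, 0.64, 0.137 and 0.279 CPM in Δ133p53α8. The libraries of the other clones were split within the clone, as in Δ133p53β5 with 9.13, 11.1, 0.641 and 19 CPM. Over all libraries, 14 had 0.137 to 0.726 CPM and 10 had 5.88 to 23.8 CPM, with none between. The 10 comprised 3 of Δ133p53α1, 3 of Δ133p53β5, 2 of Δ133p53β10, 1 of Δ133p53α2 and 1 of control, and 0 of Δ133p53α8. UBB was at 833 to 1239 CPM in all groups, and UBBP4 took between 0.017% and 1.66% of the reads of both genes. The aligned part of both RNAs is 96.09% identical.

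**Figure D4:**
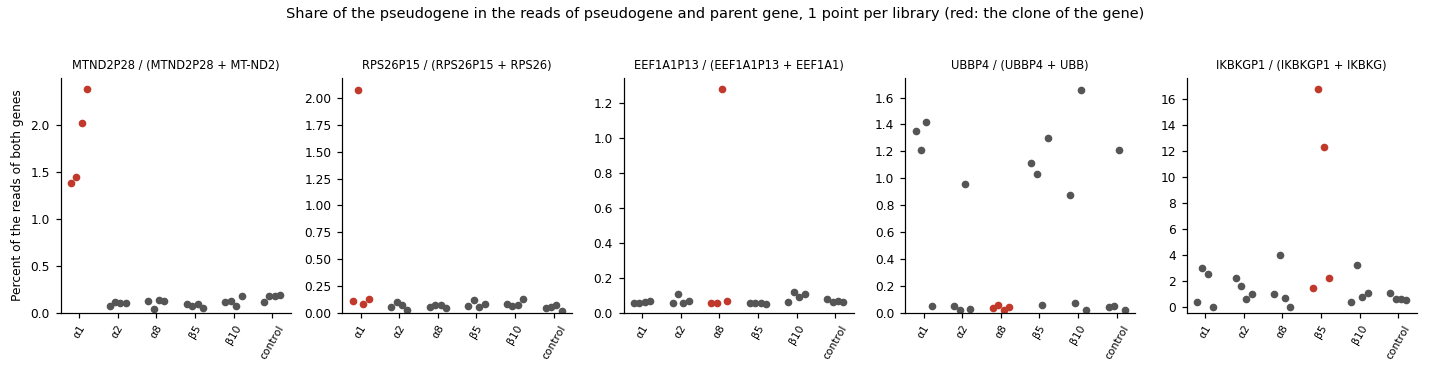
Percent of the reads of a pseudogene and its parent gene that were counted on the pseudogene, 1 point per library (red: the clone to which the pseudogene is private), with a scale for each panel. For MTND2P28 all 4 Δ133p53α1 libraries lie at 1.38% or above, for RPS26P15 and EEF1A1P13 a single library lies high, and for UBBP4 libraries of 5 groups lie high.

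In Δ133p53β5, LTF was the higher protein-coding gene. It encodes lactoferrin (chr3:46435645-46485234), an iron-binding protein of secretions and neutrophil granules. It had 23, 23, 27 and 46 reads in Δ133p53β5, 1.05 to 2.1 CPM. Δ133p53β10, the other Δ133p53β clone, had 5, 11, 15 and 0 reads, while control and Δ133p53α8 had none and Δ133p53α1 and Δ133p53α2 at most 1 read per library. A count of 0 allows up to 3 reads. The groups did not overlap, although the ratio to Δ133p53β10 was 4.09, the smallest among the higher genes. LTF was not private without replicate 4 of Δ133p53β5, the library with conflicting labels, without replicate 1 or 4 of Δ133p53β10, or with TMM or RLE scaling of the libraries. The related iron carrier TF was at or under 0.0681 CPM in all groups.

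IKBKGP1 (chrX:154639978-154648275) is an unprocessed pseudogene of IKBKG, the regulatory subunit of the IκB kinase complex, and is identical to it over all 1073 bases of its RNA. It had 4, 49, 28 and 7 reads in Δ133p53β5, and at most 8 reads in any other library. Replicates 1 and 4 overlapped the others, and its share in the reads of both genes ranged from 1.51% to 16.7% in Δ133p53β5 and from 0% to 4.04% elsewhere. IKBKG was at 7.19 to 11.5 CPM. Without replicate 2 or 3, IKBKGP1 was not selected, and with full identity its reads are uncertain. Of both higher genes of Δ133p53β5, 1 had no overlap (0.05% of tested genes).

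AMPH (chr7:38383704-38631420), amphiphysin, an adaptor of endocytosis that bends membranes, was lower in Δ133p53β5. It was at 0.502, 0.228, 0.367 and 0.137 CPM. Δ133p53β10, the nearest group, had 1.52, 1.06, 0.672 and 1.69 CPM, and control had 2.32, 3.19, 2.9 and 2.2 CPM. The ratio was only 4.01. All 4 Δ133p53β5 libraries lay below the other 20 (0.0222% of tested genes), but the selection used these same values, so nothing is read from this. Its relative BIN1 was at 43.5 CPM in Δ133p53β5 and 42.7 to 81.2 CPM elsewhere.

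By class, 9 of the 18 genes were protein coding (50%, beside 47.9% of the 35020 genes with a read), 3 were long noncoding RNAs (16.7%, beside 27.5%) and 4 were pseudogenes. Of these, 2 were processed (11.1%, beside 12.6%) and 2 unprocessed (11.1%, beside 2%). The remaining members were the tRNA gene MT-TM and UBBP4, whose symbol stands for 2 entries. Selection required 1 CPM or more in a group, which only 15961 genes reached. The classes of those genes were not counted, so nothing is read from these shares. Of 18 gene lists, 14 had no private gene, among them HOX genes, 534 zinc finger genes, integrins, collagens, keratins and 10 interferon response genes at 1 CPM or more in a group. The antisense transcripts had 2 private genes among 628 such genes (TTN-AS1 and ICAM4-AS1) and the LINC genes 1 of 170 (LINC01444). Over all genes, 18 of 15961 were private.

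The selection was repeated with each of the 24 libraries left out. In every case 10 genes stayed private: MTND2P28, EPHB6, LINC01444, HPDL, TTN-AS1, TTN, TRPM6, ICAM1, ICAM4-AS1 and MT-TM. The 8 others lost their place at least once. Within the positive and the negative set taken alone, 7 passed in both: MTND2P28, EPHB6, HPDL, TTN-AS1, ICAM1, ICAM4-AS1 and MT-TM. In the positive set, Δ133p53α1, Δ133p53β5 and Δ133p53β10 have a single library each. The same holds for Δ133p53α2, Δ133p53α8 and control in the negative set. Passing within a set thus rests on single libraries of several groups.

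The private genes were also compared between the Δ133p53 clones and control without the clone to which they are private. The rule held that clone against each of these groups, control included. The comparison is thus not independent of the selection, and the shares of all tested genes are given for scale only. The mean of the other 4 clones was compared with control by edgeR's quasi-likelihood test. A gene was called where p, adjusted by Benjamini-Hochberg, was under 0.05 and the log2 fold change reached 1.5. None of the 17 genes tested was called, and IKBKGP1 was too low to be tested. This was 0 of 9 for Δ133p53α1, where 3.55% of all tested genes were called, and 0 of 2 for Δ133p53α2 (3.47%). It was 0 of 4 for Δ133p53α8 (3.61%) and 0 of 2 for Δ133p53β5 (2.92%). DESeq2 and limma called 0 as well. In all, 10 of the 17 had an unadjusted p under 0.05. They were 6 of 9 for Δ133p53α1 (beside 25.4% of all tested genes), 2 of 2 for Δ133p53α2 (27.5%), 1 of 4 for Δ133p53α8 (29.8%) and 1 of 2 for Δ133p53β5 (23.5%).

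Without the fold limit, 5 genes passed the adjusted p. They were 3 of 9 for Δ133p53α1, where 11.6% of all tested genes passed, 2 of 2 for Δ133p53α2 (12%), 0 of 4 for Δ133p53α8 (12.7%) and 0 of 2 for Δ133p53β5 (9.07%). TNIK was lower in the other 4 clones than in control (log2 fold change -1.10 ± 0.258 SE, adjusted p = 0.00629, edgeR), opposite to its rise in Δ133p53α1. HPDL (-1.17 ± 0.333 SE, edgeR adjusted p = 0.0239) and TRPM6 (-0.79 ± 0.255 SE, edgeR adjusted p = 0.0484) were also lower in the other clones, in the same direction as in Δ133p53α1. ICAM1 was higher in the other 4 clones than in control (0.73 ± 0.185 SE, edgeR adjusted p = 0.0112), whereas Δ133p53α2 was below both. This held for the mean of the 4 clones and not for each: Δ133p53α1 was at 5.85 CPM beside 5.92 CPM in control, and Δ133p53β10 was highest at 14.9 CPM. ICAM4-AS1 was higher too (1.25 ± 0.349 SE, edgeR adjusted p = 0.0213). Over 31 other settings the adjusted p ranged from 0.00101 to 0.0663 for TNIK, 0.000976 to 0.0975 for HPDL, 0.00461 to 0.18 for TRPM6, 0.000421 to 0.0474 for ICAM1 and 0.00431 to 0.0911 for ICAM4-AS1. The other 12 did not pass, which does not show that they were equal to control. Over the same settings LINC01444 passed in some (0.0118 to 0.276), and the lowest adjusted p of the other 11 stayed above 0.05. LTF was listed at 0 reads in control, so no fold is given for it.

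A private state may be shared by genes nearby. Tested genes within 1 Mb of a private gene that were no members themselves were compared between the clone and the mean of the 5 other groups with the same fit, at an adjusted p under 0.05 and in the direction of the member. Of 366 such genes, 9 were called.

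In Δ133p53α1, 2 of 92 genes near its higher members were higher, beside 1.13% of all tested genes. The first was the unclassified transcript at TNIK (ENSG00000279673), which starts 108 bases from the start of TNIK on the opposite strand. It was at 4.67 to 6.94 CPM in Δ133p53α1 and at 0.875 to 3.66 CPM elsewhere (log2 fold change 1.85 ± 0.256 SE, edgeR adjusted p = 0.000178). TNIK and this transcript were thus both above all other libraries in Δ133p53α1, and the window printed above spans both starts. The other genes near TNIK had log2 fold changes down to -0.74. The second was FAM131B, 482 kb from EPHB6 (1.76 ± 0.392 SE, edgeR adjusted p = 0.019), which was low throughout, at 0.477 CPM in Δ133p53α1 and 0.651 CPM in Δ133p53α2.

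Near the lower members of Δ133p53α1, 3 of 61 genes were lower (0.728% of tested genes), and all lie within TTN. These were the noncoding transcripts ENSG00000270277 (log2 fold change -2.69 ± 0.572 SE, edgeR adjusted p = 0.013), ENSG00000271011 (-3.27 ± 0.436 SE, edgeR adjusted p = 0.000107) and ENSG00000270574 (-4.28 ± 0.521 SE, edgeR adjusted p = 3.82e-05). They lie on the strand of TTN-AS1 and inside it and TTN, so their reads are not independent of either. In Δ133p53α1 they were at 0 to 0.137, 0 to 0.0915 and 0.0452 to 0.0457 CPM, in this order. The last was at 0.237 to 3.27 CPM elsewhere. Since 1 CPM is about 22 reads per library, the Δ133p53α1 values are a few reads or none. The sizes of these fold changes are therefore uncertain. None of the genes outside the TTN locus was called.

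In Δ133p53α2, 1 of 55 genes near ICAM1 was lower (0.395% of tested genes). It was OLFM2, a secreted olfactomedin family protein gene 335 kb from ICAM1, at 0.0798 CPM in Δ133p53α2 and 0.193 to 0.976 CPM as means of the others (-2.17 ± 0.467 SE, edgeR adjusted p = 0.0193). This call was lost without replicate 2, 3 or 4 of Δ133p53α2. The genes around ICAM1 as a whole had a median log2 fold change of -0.12, beside 0.03 over all tested genes.

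In Δ133p53α8, 0 of 35 genes near its higher members were higher (0.445% of tested genes) and 0 of 49 near its lower members lower (0.183%). FBXL7, a ubiquitin ligase subunit 847 kb from EEF1A1P13, went the other way. It was lower in Δ133p53α8 than the mean of the others (-2.77 ± 0.508 SE, edgeR adjusted p = 0.00606), although Δ133p53β5 was as low, at 0.0799 CPM beside 0.103 CPM.

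In Δ133p53β5, 2 of 64 genes near its higher members were higher (0.817% of tested genes). MPP1, a membrane scaffold protein gene 130 kb from IKBKGP1, was at 22.1 CPM in Δ133p53β5 and 21 CPM in Δ133p53β10 (0.80 ± 0.123 SE, edgeR adjusted p = 0.000684). VBP1, a prefoldin subunit gene, was at 128 and 116 CPM in those clones (0.71 ± 0.17 SE, edgeR adjusted p = 0.0347). For both genes the other Δ133p53β clone came next. Over the 47 genes near IKBKGP1 the median log2 fold change was 0.38, beside -0.02 over all tested genes. Among the members, a larger median was found near MTND2P28, where it was 0.46 in Δ133p53α1 over 54 genes, none of them called, beside -0.00 over all tested genes. Near LINC01444 it was -0.42 over 9 genes, opposite to the member. These medians come from the fit without the library set as a term, and the part of the set in them was not tested. Near AMPH 1 of 10 genes was lower (0.617% of tested genes), EPDR1, an ependymin-related gene (-0.80 ± 0.195 SE, edgeR adjusted p = 0.0372).

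**Figure D5:**
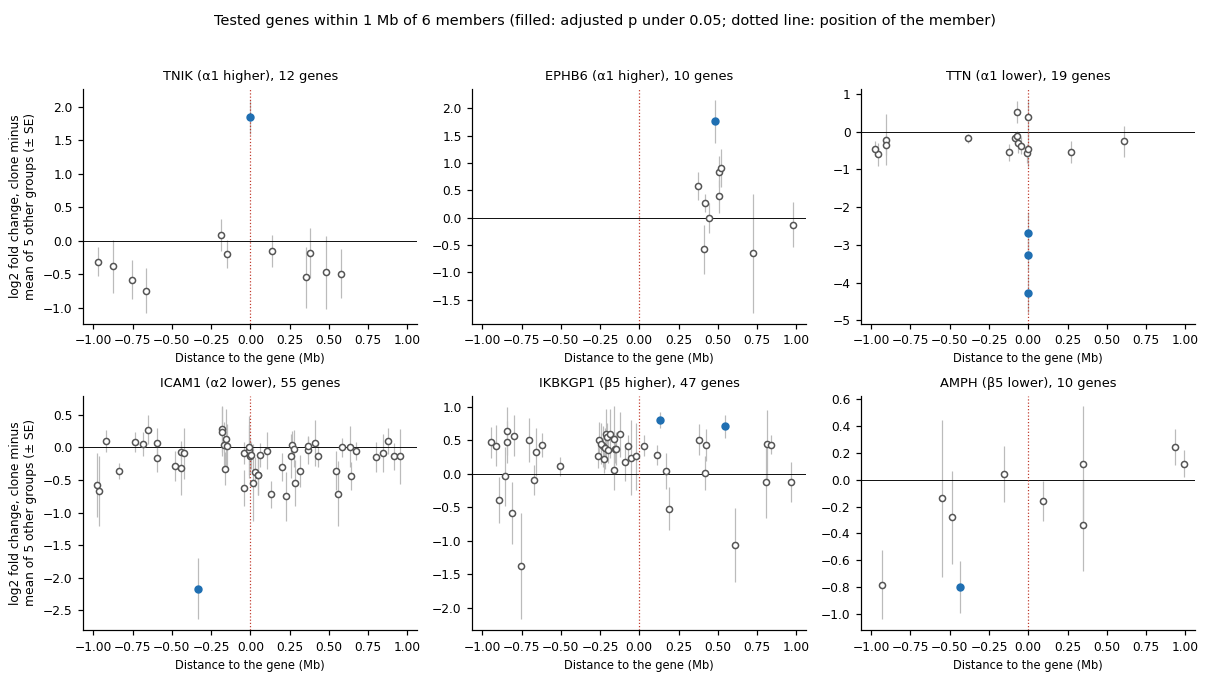
Log2 fold change between the clone and the mean of the 5 other groups (bars: SE) for tested genes within 1 Mb of 6 private genes, against their distance in Mb, with genes at an adjusted p under 0.05 filled. The 3 transcripts inside TTN lie at or below -2.69, and OLFM2 near ICAM1 at -2.17. The transcript beside TNIK lies at 1.85 and FAM131B near EPHB6 at 1.76. Most other neighbours have smaller fold changes, and the median of the genes near IKBKGP1 is 0.38.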

How the data were processed

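The authors sequenced strand-specific poly(A) RNA of 5 H1299 clones that express Δ133p53α or Δ133p53β and of H1299 cells with the vector alone, in 4 libraries per line. Per the methods of the study, reads were trimmed with Cutadapt, aligned to GRCh38 with HISAT2 and counted by exon with featureCounts on an Ensembl annotation. The handling of strand and of reads with several positions is not given in the sources used here. The authors deposited raw read counts per gene and library, with genes listed by symbol. A row without a name, with 0 counts, was left out, which left 60563 genes. Counts without molecular identifiers are not independent molecules, and a count of 0 allows up to 3, so bounds cover counting error only. Among 36 pairs of libraries of a line, counts differed by a chi-square of at least 15.8 per degree of freedom, far above sampling noise. Reads of the gene whose isoforms were added are not reported here.

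The members, the gene lists and the tests were chosen with earlier results of these data known. CPM was computed from column totals. All members were named, with the genes just outside the 4-fold limit, members of 18 gene lists and the nearest genes in Δ133p53β10. Tests used edgeR 4.0.16 in R 4.3.3 (quasi-likelihood, TMM normalization, filterByExpr, 17990 genes, 1 fit of 6 groups, Benjamini-Hochberg adjustment over all tested genes), with DESeq2 1.42.0 and limma 3.58.1 (voom) as alternatives. Other alternatives were TMM or RLE scaling, floors of 0.5 or 2 CPM, 3 or 5 times in place of 4, medians, each set of libraries alone, the library with conflicting labels in Δ133p53β10, a replicate block, the library set as a term, other windows and each library left out. The quasi-likelihood test gives no standard error. SE therefore stands for the size of the log2 fold change divided by the square root of its F statistic. The procedure was tested on simulated data. Positions and biotypes are from the GENCODE annotation of GRCh38 (59852 genes matched), promoters from RefSeq on GRCh38.p14. Parent genes, named from the symbol of the pseudogene, were compared by local alignment of transcripts.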

Additional observations from a re-analysis of the deposited data

Results flagged for a closer look

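Among the private genes, 106 groups of 4 libraries were examined for a library far from the other 3 (Dixon's criterion), and 13 had one. For normally distributed values, chance gives about 1 in 20. That rate does not hold for counts near 0, where ties decide the outcome. Examples are LTF in Δ133p53α1 (0, 0, 1 and 0 reads) and HPDL in Δ133p53α1 (0, 2, 2 and 2 reads). The 13 are therefore listed without a comparison with chance. In the clone of the gene itself, the highest library was at 12.3 CPM for RPS26P15 in Δ133p53α1 (replicate 2), 1.65 CPM for TRPM6 in Δ133p53α1 (replicate 1) and 152 CPM for EEF1A1P13 in Δ133p53α8 (replicate 3). The lowest library was at 0 CPM for HPDL in Δ133p53α1 (replicate 1) and 20.4 CPM for MT-TM in Δ133p53α8 (replicate 2). The values of RPS26P15 and EEF1A1P13 rest on that library, whereas HPDL, TRPM6 and MT-TM stayed private without it.

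In other groups, the highest library stood apart for TNIK in Δ133p53β5 (5.8 CPM), EPHB6 in Δ133p53β5 (0.183 CPM), GAGE13 in Δ133p53β5 (4.99 CPM) and UBBP4 in Δ133p53α2 (5.88 CPM) and in control (9.44 CPM). The same held for LTF in Δ133p53α1 (0.0453 CPM, 1 read) and IKBKGP1 in control (0.0788 CPM, 2 reads). The lowest library stood apart for TRPM6 in Δ133p53α2 (2.86 CPM). The cause of these single values was not tested.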

How the results depend on the processing

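The number of private genes depended on the settings. With a floor of 0.5 CPM, Δ133p53α1 had 8 higher and 8 lower genes, Δ133p53α2 had 2 and 4, and Δ133p53β10 had 1 lower. With 3 times in place of 4, Δ133p53α1 had 9 and 8, Δ133p53α2 had 2 and 4, Δ133p53β5 had 3 lower and Δ133p53β10 had 3 higher. With a floor of 2 CPM, 1 gene was lower in Δ133p53α2, 0 in Δ133p53α8 and 0 in Δ133p53β5, and 0 were higher in Δ133p53β5. With 5 times, Δ133p53α8 had 1 higher and 1 lower gene and Δ133p53β5 1 higher and 0 lower. With TMM-scaled CPM, Δ133p53β5 and Δ133p53β10 had 1 higher gene each, and with RLE-scaled CPM Δ133p53α8 and Δ133p53β5 had 1 each. With medians, 11 genes were lower in Δ133p53α1, 1 was higher in Δ133p53α2, 1 higher and 1 lower in Δ133p53α8, and 0 were higher in Δ133p53β5, with 12 of the 18 kept. With the library of conflicting labels in Δ133p53β10, Δ133p53α8 had 1 lower gene and Δ133p53β5 1 higher and 0 lower.

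Within the positive set alone, 5 genes were higher in Δ133p53β10, 4 in Δ133p53α8, 1 in Δ133p53α2 and 1 in Δ133p53β5, with 0 lower in Δ133p53β5 and 1 in Δ133p53β10. Within the negative set, 3 were higher in Δ133p53α1, 8 in Δ133p53α2, 1 in Δ133p53α8 and 0 in Δ133p53β5, with 10 lower in Δ133p53α2 and 0 in Δ133p53α8. Of the 18 genes, 11 passed in each set. On the log2 scale, the ratio to the next group reversed for EEF1A1P13 with medians (-0.44) and in the negative set (-0.70), for GAGE13 in the positive set (0.41) and for UBBP4 in the negative set (0.11).

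With 1 library left out, genes lower in Δ133p53α1 numbered from 4 to 69 (69 without its replicate 1). The range was 0 to 3 for higher in Δ133p53α2 (3 without replicate 3 of control), 1 to 3 for higher and 1 to 5 for lower in Δ133p53α8 (5 without its replicate 2), 1 to 2 for higher and 0 to 8 for lower in Δ133p53β5 (8 without its replicate 1), and 0 to 1 for higher and 0 to 3 for lower in Δ133p53β10 (3 without its replicate 1). The log2 ratio ranged from -0.64 to 2.58 for EEF1A1P13 (-0.64 without replicate 3 of Δ133p53α8) and from -2.99 to 0.01 for UBBP4 (0.01 without replicate 3 of Δ133p53α2). Ratios of other private genes that moved by over 1.5 times fell to 0.14 for RPS26P15 without replicate 2 and reached -3.74 for TRPM6, -3.57 for TTN-AS1 and -3.30 for TTN without replicate 1 of Δ133p53α1. They were -0.19 for GAGE13 without replicate 3 of Δ133p53β5 and 1.86 for IKBKGP1 without its replicate 2. Called neighbours ranged from 1 to 3 for the higher genes of Δ133p53α1, 0 to 2 for Δ133p53α2, 1 to 3 for the higher and 0 to 1 for the lower genes of Δ133p53β5. The call of EPDR1 near AMPH was lost in 11 of the 24.

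By adjusted p alone, 3 of 9 private genes of Δ133p53α1 (11.6% of tested genes) and 2 of 2 of Δ133p53α2 (12%) differed between the other clones and control. Within 0.25 Mb, 1 neighbour was called for the higher genes of Δ133p53α1, 0 for Δ133p53α2, 1 for the higher and 0 for the lower genes of Δ133p53β5. Within 2 Mb, 6 were called for the higher genes of Δ133p53β5, where 0.817% of all tested genes were called higher. A wider window holds more genes, and the numbers tested in these windows are not given. The counts are therefore not compared between windows. Replicate numbers did not pair the libraries. Same-numbered libraries of 2 groups had correlations of their deviations from -0.886 to 0.893 (median -0.0233), and 7 of 24 correlated best with their own number. With the replicate block, 1 neighbour was called for the higher genes of Δ133p53α1, 0 for Δ133p53α2 and 1 for the higher genes of Δ133p53β5, and the cause of these changes was not tested. At this depth, a mean of 1 CPM is about 22 reads per library, so the genes near the floor have few reads.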
